A study of Mus musculus with 173 samples.

Results

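The cells compared here are single cells of the adult mouse dentate gyrus that hold, or lack, the transcript of Eomes, a T-box transcription factor also called Tbr2. In the adult hippocampus, radial glia-like neural stem cells of the subgranular zone give rise to dividing intermediate progenitors, which go on to become neuroblasts and granule neurons. The stem cells carry glial transcripts such as Slc1a3 (the glutamate transporter GLAST), Gfap, Hopx and Sox9, while Eomes is the usual marker of the intermediate progenitor, where it follows the proneural factor Neurog2 and precedes Neurod1. Cells that leave the stem cell state are known to lose glial metabolism and adhesion transcripts and to gain those of growth, division and neuronal differentiation.

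Each library was made from the total RNA of 1 cell of the dentate gyrus of C57BL/6 mice aged 8 to 12 weeks. The table holds 172 libraries, of which 26 have titles that begin with N, 4 with R and the rest with C, letters that the labels do not spell out. The labels name no animal, genotype or reporter line, although the table carries a row for an eCFP transgene, and so every group of cells counts as 1 sample and no test between groups was possible. Intervals given for shares of cells are exact 95% Clopper-Pearson intervals and cover counting error only.

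Members were chosen by the measured levels of Eomes and Slc1a3 in the C libraries. A cell was Eomes-positive at an Eomes level of at least 10 TPM (transcript levels scaled to a common total per library) and Eomes-negative at an Eomes level below 1 TPM with at least 100 TPM of Slc1a3. This gave 16 Eomes-positive cells, 7 of them non-cycling and 9 cycling by the score described below, and Eomes-negative cells of which 100 were non-cycling and 12 cycling, out of the 172 libraries. Counts of Eomes-negative cells below are out of those 100 and 12 together unless a class is named. Of the other C cells, 10 had Eomes between the limits and 4 had neither transcript at its limit. Of the other title classes, 1 of 26 N libraries (36.14 TPM of Eomes, 36.78 TPM of Slc1a3) and 0 of 4 R libraries reached 10 TPM of Eomes.

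Eomes and Slc1a3 set the sides, so their levels are a description. Eomes in the 16 positive cells ran from 13.92 to 2744 TPM with a median of 107.3 TPM, and it was listed at 0 in 84 of the negative cells. The cells nearest to the limit from above were C20 (13.92 TPM), C19 (20.42 TPM) and C57 (22.71 TPM), and those nearest from below were C67 (4.37 TPM), C103 (2.83 TPM) and C24 (2.59 TPM). No cell therefore lay close to 10 TPM, but the negative side reached 0.92 TPM, next to the limit of 1 TPM. Slc1a3 was also present on the positive side, at 92.6 to 4916 TPM with a median of 441 TPM, and 15 of those 16 cells held at least 100 TPM of it. In the negative cells it ran from 128.9 to 16614 TPM with a median of 4446 TPM, and the C cells closest to the limit held 128.9 and 158.4 TPM inside and 69.5 and 16.5 TPM outside. The eCFP transcript had a median of 4176 TPM (710 to 16109) in Eomes-positive and 9022 TPM (647 to 33811) in Eomes-negative cells, so the positive cells lay within the range of the negative cells and had the lower median. The number of genes with at least 1 TPM was alike, with a median of 3880 (2897 to 5700) against 3652 (1717 to 6821).

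**Figure D1:**
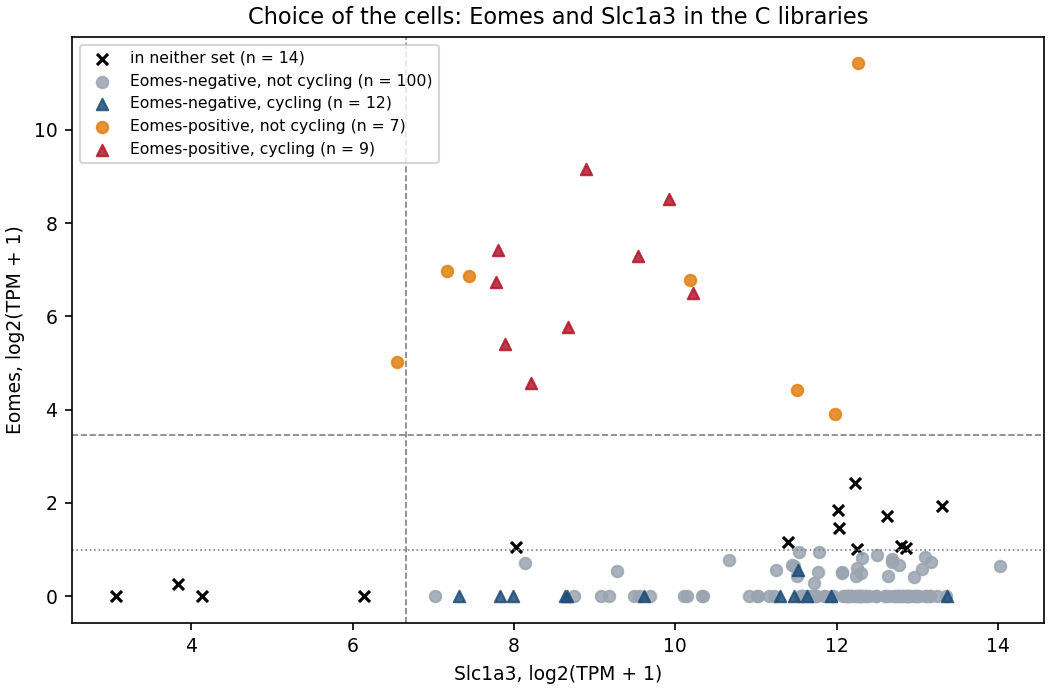
Levels of Eomes (vertical axis) and Slc1a3 (horizontal axis), both as log2(TPM + 1), in each C library. Dashed lines mark 10 TPM of Eomes and 100 TPM of Slc1a3, and the dotted line marks 1 TPM of Eomes. The 16 Eomes-positive cells stand above the gap between 4.37 and 13.92 TPM, and 15 of them lie to the right of the Slc1a3 limit.

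Cycling cells were counted with the mean log2(TPM + 1) of Mki67 (a nuclear protein of dividing cells), Top2a (topoisomerase II), Cdk1 (the mitotic kinase) and Ccnb1 (its partner cyclin B1). At a mean of at least 3, 9 of the 16 Eomes-positive cells were cycling (56.25%, interval 29.9 to 80.2%). Among the Eomes-negative cells 12 were cycling and 100 were not (10.7%, interval 5.66 to 17.97%). These intervals cover counting error over cells alone and do not compare the sides, and with a pseudocount of 10 the cycling cells numbered 5 positive and 7 negative. None of the 10 cells between the limits was cycling, which allows up to 30.8%, and 1 of the 4 cells low in both transcripts was. The scores nearest to the limit were 3.40 and 3.46 inside it and 2.68 (C72, Eomes-negative), 2.39 (C123) and 2.33 (C110) below it, the last pair being Eomes-positive.

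The 4 genes of the score are mainly genes of late S phase, G2 and mitosis, so a cell in early S phase can fall below the limit. By the mean of a list of 21 measured S phase genes, 1 of the 7 non-cycling Eomes-positive cells (C123, at 5.91 on the log2(TPM + 1) scale) and 4 of the 100 non-cycling Eomes-negative cells reached 3. The word non-cycling below therefore means only a score under 3.

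The sequences upstream of Eomes and of the genes of the score are shown because these genes set the sides and the cycling class. They are the 250 bases before the RefSeq start site in GRCm38.p6, 5′ to 3′ on the gene's strand, from chr9:118477939-118478188 (Eomes, plus strand), chr7:135716380-135716629 (Mki67, minus), chr11:99024190-99024439 (Top2a, minus), chr10:69352913-69353162 (Cdk1, minus) and chr13:100786487-100786736 (Ccnb1, minus). Capitals mark the CCAAT box (CCAAT or ATTGG) and the TTTGAA element (TTTGAA or TTCAAA), letters known from promoters of cell cycle genes.
Eomes: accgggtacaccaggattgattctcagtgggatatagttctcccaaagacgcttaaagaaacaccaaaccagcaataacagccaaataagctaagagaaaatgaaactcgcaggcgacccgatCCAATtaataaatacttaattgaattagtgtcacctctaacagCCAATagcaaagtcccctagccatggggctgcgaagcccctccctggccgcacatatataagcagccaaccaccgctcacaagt
Mki67: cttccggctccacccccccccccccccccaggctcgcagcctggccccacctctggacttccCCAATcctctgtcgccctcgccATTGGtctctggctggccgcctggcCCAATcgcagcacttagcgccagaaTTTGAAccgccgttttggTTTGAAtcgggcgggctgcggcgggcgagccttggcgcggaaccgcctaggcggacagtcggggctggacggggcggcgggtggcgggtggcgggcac
Top2a: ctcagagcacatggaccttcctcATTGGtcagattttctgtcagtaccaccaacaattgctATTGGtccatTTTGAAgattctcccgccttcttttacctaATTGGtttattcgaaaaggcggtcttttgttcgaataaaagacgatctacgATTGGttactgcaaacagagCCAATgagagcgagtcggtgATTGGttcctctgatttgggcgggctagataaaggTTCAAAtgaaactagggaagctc
Cdk1: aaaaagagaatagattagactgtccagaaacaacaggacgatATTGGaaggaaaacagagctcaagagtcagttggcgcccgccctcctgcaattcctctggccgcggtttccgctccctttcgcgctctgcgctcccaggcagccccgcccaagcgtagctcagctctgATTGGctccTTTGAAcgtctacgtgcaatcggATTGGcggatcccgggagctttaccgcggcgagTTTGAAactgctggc
Ccnb1: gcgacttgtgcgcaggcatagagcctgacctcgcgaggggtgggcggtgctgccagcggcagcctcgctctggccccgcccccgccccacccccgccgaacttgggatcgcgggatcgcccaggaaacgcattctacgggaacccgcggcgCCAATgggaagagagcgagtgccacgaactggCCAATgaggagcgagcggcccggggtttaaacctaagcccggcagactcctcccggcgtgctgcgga

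The Top2a window held 8 matches to these letters, the Mki67 and Cdk1 windows 5 each, and the Ccnb1 and Eomes windows 2 each, all of the CCAAT box. Of 27025 RefSeq promoters, 34.5% held a CCAAT box on either strand, 16.3% a TTTGAA element and 5.73% both, and of the 9357 promoters found for measured genes, from which the groups below are drawn, 37.1%, 11.2% and 4.48% did. Among the 62 promoters found for the 74 genes that were higher in Eomes-positive cells overall but differed by less than 1 without the cycling cells, 59.7% held a CCAAT box and 19.4% held both. Among the 214 promoters of genes that stayed higher without the cycling cells the shares were 46.3% and 5.61%, and among 130 promoters of genes that stayed lower they were 34.6% and 3.08%. The 74 genes were not cleared of genes of the score such as Ccnb1, whose loss follows from the choice of cells. The E-box CAGATG (or CATCTG), of the kind bound by neurogenic factors, was in 14.5% of all promoters, 9.78% of those of measured genes, 5.61% of those that stayed higher and 15.4% of those that stayed lower. The T-box core AGGTGTGA (or TCACACCT) was in 1.14% of all promoters, 0.63% of those of measured genes and 0 of the promoters of these 3 groups. A match describes letters in a window of 250 bases and is not a site in use.

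Gene differences were taken as the mean log2(TPM + 1) of the Eomes-positive cells minus that of the Eomes-negative cells, for 11704 genes with at least 1 TPM in at least 5% of the C libraries. A gene was called apart when the difference was at least 2 and the gene reached 1 TPM in at least 50% of the cells of the higher side. Over all cells of both sides, 461 genes were apart and higher in Eomes-positive cells (3.94% of those measured) and 195 were lower (1.67%). With the cycling cells of both sides left out (7 against 100 cells), 541 were higher (4.62%) and 224 lower (1.91%). The median difference over all measured genes was 0.00062 over all cells and -0.07 among non-cycling cells.

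Of the 461 genes higher over all cells, 261 (56.6%) were also higher among non-cycling cells, and of the 195 lower genes 154 (78.97%) were also lower. The share of higher genes that remained was 42.9% on the log2 of the mean TPM, 45.3% with cycling cells counted from a score of 2, and 40.2% with Eomes-positive cells from 1 TPM, where 38.8% of the lower genes remained. The non-cycling cells are part of all cells, so these counts are not independent. Of the higher genes that did not remain, 74 differed by less than 1 and the others by at least 1, and of the lower genes 9 differed by less than 1 and 32 by at least 1. On the log2 of the mean TPM, a scale that a single high cell can set, more genes were lower than higher: 140 higher and 259 lower over all cells, and 193 and 348 among non-cycling cells, where the median of all genes was -0.90. The number of apart genes rests on few cells: without C19 the higher genes among non-cycling cells numbered 845 in place of 541.

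The genes lost with the cycling cells were led by Pbk (a mitotic kinase), Hist1h2ao (a replication-dependent histone H2A gene with near-identical copies, so uncertain), Dek (a chromatin protein), Tpm4 (a tropomyosin) and Ccnb1. Pbk differed by 4.32 over all cells and by 0.50 among non-cycling cells, where its highest value in an Eomes-positive cell was 6.78 TPM. Hist1h2ao went from 3.89 to 0.04, and Ccnb1, a gene of the score, from 3.36 to 0.60. Dek went from 3.69 to 0.86 but differed by 4.15 within the cycling cells, at medians of 512 TPM in Eomes-positive and 26.99 TPM in Eomes-negative cycling cells. Tpm4 followed the same course, with 3.53 over all cells, 0.43 among non-cycling and 3.95 among cycling cells. Leaving out the genes of the score, whose loss follows from the choice of cells, 6 of the 74 genes were in the S phase or mitosis lists (Rpa2, Prc1, Kif11, Racgap1, Dut and Cenpf), which hold 46 of all 11704 measured genes.

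On the lower side the lost genes with the largest overall differences were Sat1 (polyamine acetylation), Hmgn3 (a nucleosome-binding protein), Smpdl3a (a phosphodiesterase), Scg3 (a secretory granule protein) and Tspan3 (a tetraspanin). Scg3 differed by -2.27 over all cells and 0.02 among non-cycling cells, and Tspan3 by -2.20 and 0.19. For Tspan3 the difference stood within the cycling cells, at a median of 2.78 TPM in 9 Eomes-positive against 400 TPM in 12 Eomes-negative cells, with every one of the 9 below the negative median.

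**Figure D2:**
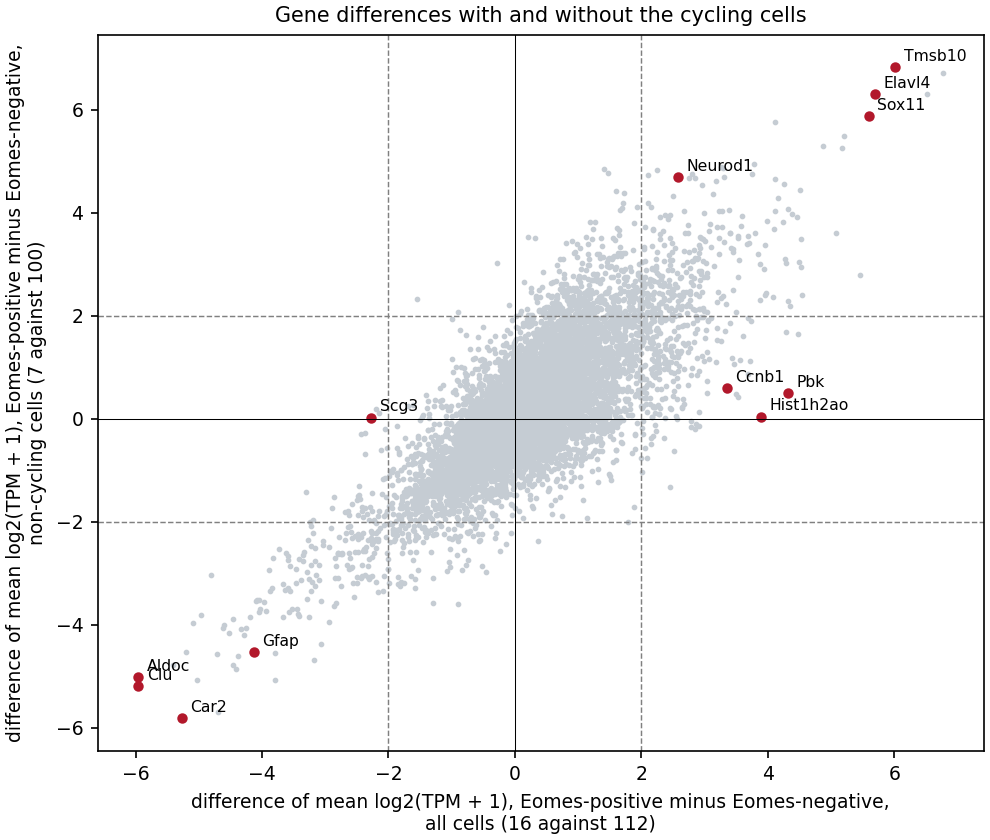
Each point is 1 of 11704 measured genes, placed by its difference in mean log2(TPM + 1), Eomes-positive minus Eomes-negative, over all cells (horizontal axis) and among non-cycling cells (vertical axis, 7 against 100). Dashed lines mark differences of 2 in size. Tmsb10, Elavl4 and Sox11 stand high on both axes, Pbk, Hist1h2ao and Ccnb1 lie to the right near 0 on the vertical axis, and Clu, Aldoc and Car2 are low on both.

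The intermediate progenitor list was higher in Eomes-positive cells with or without the cycling cells. Its 18 measured members, Eomes among them, had a median difference of 2.39 over all cells and 2.38 among non-cycling cells, and 8 members were apart and higher and 0 lower in each comparison. The mean of this list in a cell ran from 0.39 to 3.84 with a median of 2.73 in Eomes-positive cells and from 0.09 to 2.03 with a median of 0.66 in Eomes-negative cells, so the ranges overlapped from 0.39 to 2.03. The lower quartile of the positive cells, 2.32, was above the highest negative cell. The list was drawn up for cells of this kind, and Eomes is part of it and of the choice of cells.

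Within that list, the transcription factors of the neurogenic cascade were each on in few cells. At a level of at least 10 TPM, Neurog2 (a proneural bHLH factor upstream of Eomes) was in 3 of 16 Eomes-positive cells, all cycling: C59 at 453 TPM, C135 at 393 TPM and C126 at 61.7 TPM. It was in 4 Eomes-negative cells, all non-cycling. Neurod1 (a later bHLH factor of granule neuron differentiation) was in 4 positive cells, C131 at 3125 TPM, C138 at 1947 TPM and C123 at 500 TPM among the non-cycling and C79 at 194 TPM among the cycling, and in 0 negative cells. Neurod4 (a related bHLH factor) was in 4 positive cells, C110 at 331 TPM, C127 at 76.4 TPM, C126 at 22 TPM and C131 at 20.6 TPM, and in 0 negative cells.

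Neurog2 (3 of 16 cells) and Neurod1 (4 of 16 cells) at 10 TPM were never found in the same Eomes-positive cell. With so few cells, this lack of overlap cannot show that they exclude each other. At least 1 of the 3 factors reached 10 TPM in 9 of the 16 positive cells, more than 1 in 2 cells (C126 and C131) and none in 7, against at least 1 in 4 of the negative cells and in 0 of the 12 negative cycling cells. Insm1 (a zinc finger factor of basal progenitors) was in 8 positive cells, 6 of them cycling, and in 4 negative cells, all 4 cycling.

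Transcripts of later stages marked single cells. Tbr1, a T-box factor that follows Eomes in cortical neurons, reached 10 TPM in C138 (1007 TPM) and C131 (95.4 TPM) and in 0 negative cells. Dcx, the microtubule protein of neuroblasts, reached it in C131 (220 TPM), C126 (60.8 TPM) and C127 (32.2 TPM) and in 3 negative cells. Neurod4, Tbr1 and Dcx did not reach 1 TPM in enough C libraries to be among the measured genes, so they are given as counts of cells alone. Prox1, the granule neuron identity factor, was in 2 of 16 positive and 16 negative cells.

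**Figure D3:**
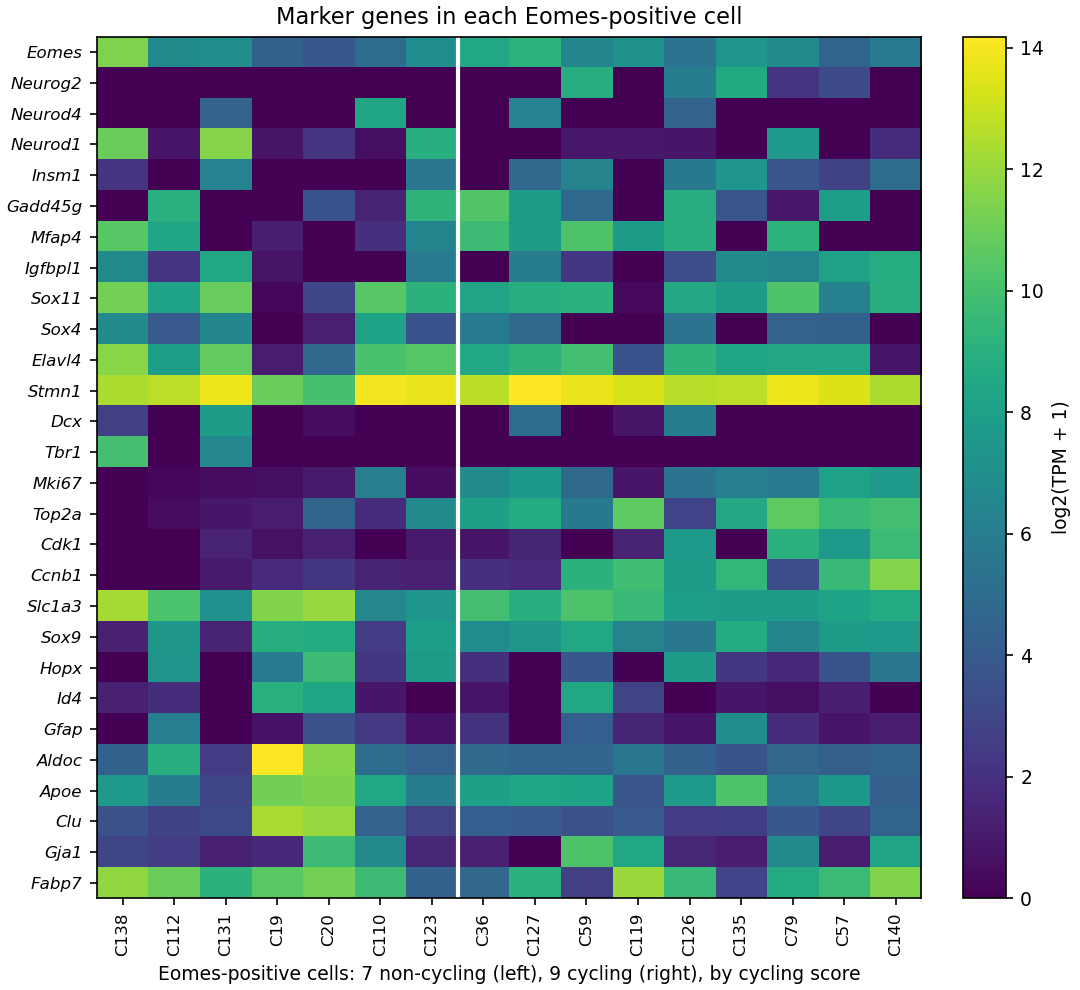
Levels of 28 marker genes (rows) in each of the 16 Eomes-positive cells (columns), as log2(TPM + 1) on a colour scale from 0 to the highest value, with the 7 non-cycling cells left of the white line and the 9 cycling cells right of it, each in order of cycling score. Neurog2 is on only right of the line, Tbr1 only in C138 and C131, and Aldoc and Clu only in C19 and C20 at high levels.

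The broadest differences were in genes that many Eomes-positive cells shared. Elavl4 (the neuronal RNA-binding protein HuD) reached 10 TPM in 14 of 16 positive cells and, on the negative side, in 16 of 100 non-cycling and 5 of 12 cycling cells. Among non-cycling cells it ran from 1.15 to 3220 TPM with a median of 1084 TPM in the 7 positive cells, and from 0 to 637 TPM with a median of 0.86 TPM in the 100 negative cells, a mean of 8.12 ± 3.85 against 1.82 ± 2.68 (log2(TPM + 1), SD over cells). All 7 positive cells lay above the negative median, and the lowest, C19, lay just above it.

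Sox11 (a SoxC factor of committed neural progenitors) had a median of 548 TPM (0.17 to 2384) in the 7 positive and 0.685 TPM (0 to 675) in the 100 negative non-cycling cells, a difference of 5.88. Its relative Sox4 differed by 3.61 there. Among cycling cells Sox11 differed by 3.17 and Sox4 by 1.96, and 8 of 9 positive cycling cells lay above the negative median for Sox11. C19 and C20 were the low cells of the non-cycling group for Sox11, at 0.17 and 6.89 TPM, and C119 that of the cycling group, at 0.25 TPM.

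Mfap4 (a matrix fibrillar protein) and Igfbpl1 (an insulin-like growth factor binding protein-like protein) were among the members of these lists that were apart and higher in both classes. Mfap4 differed by 3.49 among non-cycling and 4.99 among cycling cells, but it was uneven: 9 of 16 positive cells held at least 10 TPM, up to 1421 TPM in C138, and 5 cells were listed at 0. Igfbpl1 differed by 3.20 and 4.13, reached 10 TPM in 8 of 16 positive cells, and did so in 1 negative cell. Ccnd2, the D-type cyclin of neural progenitors, differed by 3.08 among non-cycling cells and by 1.82 among cycling cells. C19, C20 and C140 held 3.08, 21.3 and 3.86 TPM of it, while the other 13 cells held 162 to 1804 TPM.

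The neuroblast list, with 16 measured members, had a median difference of 0.56 over all cells and 1.21 among non-cycling cells, with 6 members higher and 0 lower in each. Dpysl3 (a collapsin response mediator of growing axons) differed by 4.95 among non-cycling cells, where all 7 positive cells lay above the negative median of 0. Its highest values were 1533 TPM in C112 and 1214 TPM in the cycling cell C140. The mature neuron list had a median difference of -0.40 among non-cycling cells, with 3 of 13 members higher and 0 lower: Map2 (a dendritic microtubule protein) at 2.71, Snap25 (a synaptic fusion protein) at 2.18 and Rbfox3 (the NeuN splicing factor) at 2.15. Over all cells and among cycling cells 0 members were apart, and Map2 differed by -1.17 among cycling cells.

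Among stathmins, tubulins and actin genes, 8 of 26 measured members were higher and 0 lower among non-cycling cells, with a list median of 1.15. Tmsb10 (thymosin beta 10, which binds actin monomers) had the largest difference of all measured genes there, 6.82, with 10.7 to 2826 TPM in the 7 positive cells and a median listed at 0 in the 100 negative cells. Stmn1 (stathmin, which destabilises microtubules) differed by 5.25, at a median of 6916 TPM against 185 TPM, and it was above the negative median in all 16 positive cells over all cells. Both were present in cycling Eomes-negative cells, so that within the cycling cells the differences were 0.79 and 1.46 and 0 of the 26 members was apart in both comparisons.

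The neural stem cell list was lower in Eomes-positive cells. Of its 25 measured members 12 were lower and 0 higher over all cells (median -1.59), and 11 were lower among non-cycling cells (median -1.56). Slc1a3, which the rule used, is 1 of the 12. Hopx (a homeodomain protein of quiescent stem cells) reached 10 TPM in 8 of 16 positive cells, 84 of 100 negative non-cycling and 6 of 12 negative cycling cells, and Gfap (the glial filament protein) in 4 of 16, 70 of 100 and 6 of 12. Gfap was below the negative median in all 16 positive cells.

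Sox9 (a glial and stem cell transcription factor) was apart and lower over all cells (-2.09) and among non-cycling cells (-3.34). It reached 10 TPM in 13 of 16 positive cells, 96 of 100 negative non-cycling and 9 of 12 negative cycling cells, and within the cycling cells it differed by 0.56, at medians of 180 and 282 TPM. The low cells were C138 (1.45 TPM), C131 (1.52 TPM) and C110 (4.70 TPM), which are also the cells with the most Neurod1 or Neurod4. Sox2 reached 10 TPM in 4 of 16 positive and 46 negative cells, and Nes and Vim differed by -0.24 and 0.53 over all cells.

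Id4 (an inhibitor of bHLH factors) differed by -3.36 among non-cycling and -2.10 among cycling cells, and Id3 by -2.59 and -0.02. Of the 19 measured genes of the Notch pathway, 2 were higher and 1 lower among non-cycling cells: the receptor Notch2 differed by -2.61, the glycosyltransferase Mfng by 3.68 and the nuclear mediator Rbpj by 2.28. Over all measured genes 4.62% were higher and 1.91% lower there, so these few members are no result about the pathway. Hes5 and Hes1, targets of the pathway, differed by 1.96 and -1.22 and were not apart there.

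Astrocyte transcripts were low in most Eomes-positive cells. Of 16 measured members of the astrocyte list 9 were lower and 0 higher both over all cells (median -2.54) and among non-cycling cells (median -2.41). The list mean had a median of 1.40 (0.69 to 4.36) in positive and 3.84 (0.92 to 6.22) in negative cells. Atp1b2 (a glial sodium pump subunit) was at 0.65 to 2.74 TPM in the 7 non-cycling positive cells against a negative median of 189 TPM, a difference of -4.86, and it was below the negative median in all 16 positive cells. Gja1 (connexin 43) differed by -4.54 among non-cycling cells and by 0.20 among cycling cells, at medians of 1.84 and 3.55 TPM. The cycling positive cells were split: C59 held 1181 TPM, C119 367 TPM, C140 305 TPM and C79 100.4 TPM, and the other 5 held at most 1.84 TPM.

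**Figure D4:**
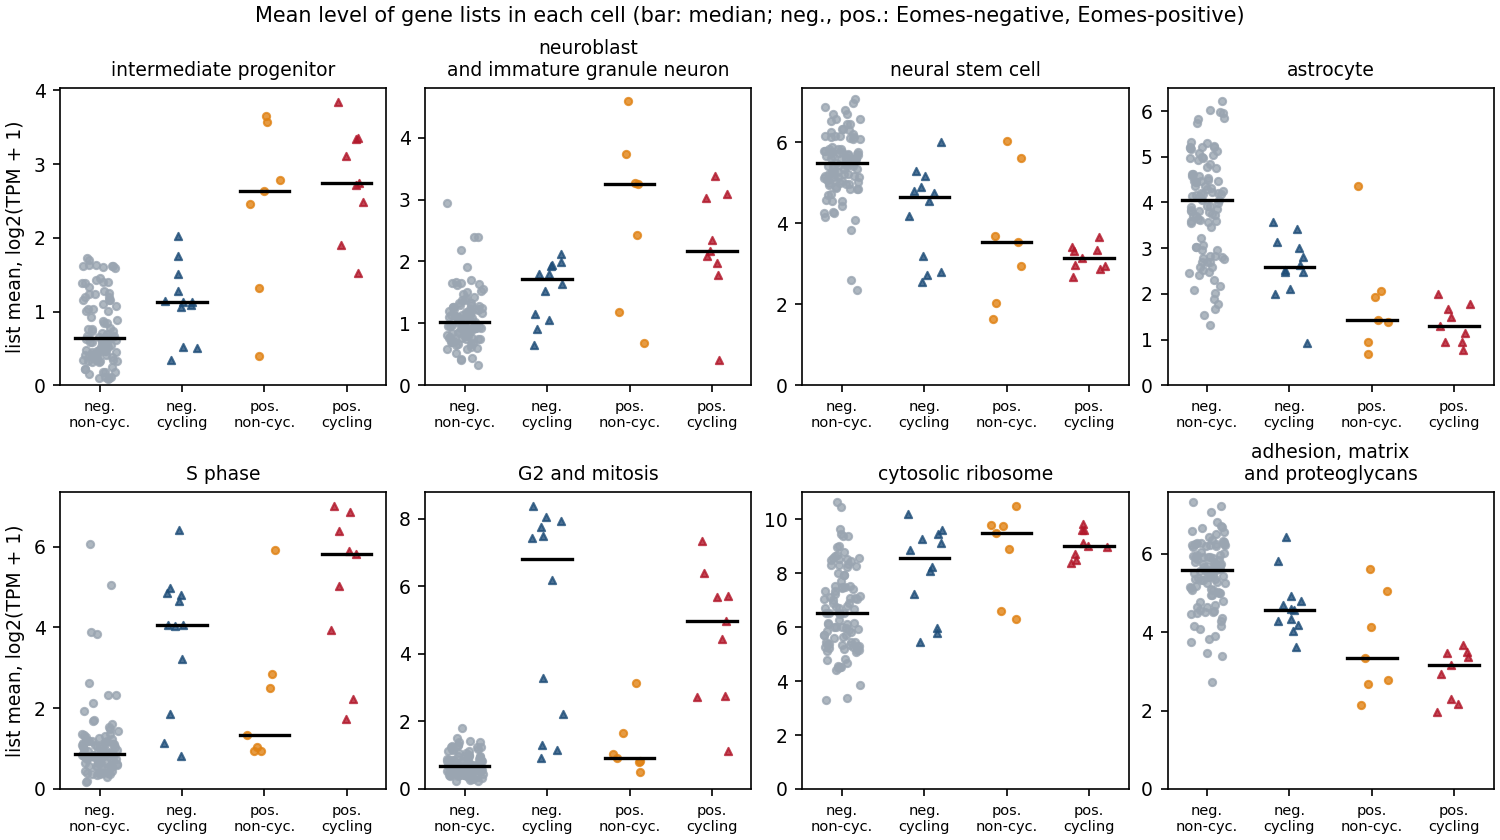
Mean log2(TPM + 1) of 8 gene lists (panels, vertical axes) in each cell, for 100 Eomes-negative non-cycling, 12 Eomes-negative cycling, 7 Eomes-positive non-cycling and 9 Eomes-positive cycling cells, with bars at the medians. The intermediate progenitor list has medians of 0.63, 1.13, 2.64 and 2.74 in that order, and the neural stem cell list 5.48, 4.64, 3.52 and 3.14, with 2 non-cycling Eomes-positive cells among the high values.

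Lipid carriers, uptake genes and adhesion genes went with the stem cell list. Of 11 lipid carrier genes 7 were lower and 0 higher among non-cycling cells (median -2.35), of 18 genes of transmitter uptake, channels and connexins 8 were lower and 0 higher (median -2.02), and of 24 adhesion, matrix and proteoglycan genes 12 were lower and 0 higher (median -2.16). Clu (clusterin, a secreted chaperone that carries lipid) had a median of 10.5 TPM in positive against 3301 TPM in negative non-cycling cells, and Apoe (apolipoprotein E) 192 against 4144 TPM. Clu was at 5394 TPM in C19 and 3919 TPM in C20 and at 4.78 to 22.5 TPM in each of the other 14 positive cells, so the group held 2 levels with nothing between them.

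Aldoc (the brain form of aldolase, a marker of glia) showed the same split, at 18275 TPM in C19, 3134 TPM in C20, 469 TPM in C112 and at most 45.8 TPM in the other 13 cells, against a median of 6883 TPM in the 100 non-cycling negative cells. Car2 (carbonic anhydrase 2) had the lowest difference among non-cycling cells, -5.82, with no positive cell above 5.10 TPM and a negative median of 520 TPM. Here C19 and C20 were as low as the rest, at 5.06 and 5.10 TPM. Of 16 glycolytic genes 5 were lower and 0 higher among non-cycling cells, among them Aldoa (the ubiquitous aldolase) at -4.79. Within the cycling cells Aldoa differed by -0.01, with medians of 11.4 and 10.975 TPM.

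Growth-related lists were higher over all cells and among non-cycling cells. All 47 measured cytosolic ribosomal protein genes had a positive difference both over all cells and among non-cycling cells, with 24 and 25 apart and a median of 2.09 and 2.07. The reads of ribosomal protein genes are shared with many pseudogenes, so single values, such as Rps2 at 4.53 among non-cycling cells, are uncertain. The list mean was 9.07 (6.32 to 10.5) at the median in positive and 6.72 (3.29 to 10.7) in negative cells, so the positive range lay inside the negative one. Within the cycling cells the list median was 1.03 and 8 of 47 were apart and higher.

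Splicing genes (24 measured) had 10 members higher and 0 lower among non-cycling cells (median 1.81), led by Snrpg (a core snRNP protein with retrocopies, so uncertain) at 6.72. Of 26 chromatin and high mobility group genes 6 were higher and 0 lower there (median 0.88). Hmgn1 (a nucleosome-binding protein) was above the negative median in all 16 positive cells over all cells. It ran from 77.2 to 5006 TPM in the 7 non-cycling positive cells against a negative median of 3.255 TPM (0 to 3339 TPM), and it differed by 3.34 within the cycling cells. Proteasome genes had 5 of 22 higher (median 1.13), translation factors 5 of 24 (median 1.40) and oxidative phosphorylation 6 of 35 (median 0.93), with 0 lower in each. Within the cycling cells the proteasome median was -0.13 (2 higher, 1 lower) and that of oxidative phosphorylation 0.07 (2 higher, 3 lower). There the medians were 1.07 for splicing, 0.91 for translation factors and 0.72 for chromatin and high mobility group genes. On the log2 of the mean TPM the non-cycling medians were 0.81 for ribosomal, 0.44 for splicing, -0.0076 for proteasome and -0.13 for oxidative phosphorylation genes, beside -0.90 for all genes, so the proteasome and oxidative phosphorylation medians turned in sign on that scale.

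Cell cycle genes were also counted without the cycling cells. Those cells were chosen by a score mainly of late S phase, G2 and mitosis genes. A loss of G2 and mitosis genes therefore follows largely from that choice and is no separate result. Of 21 S phase genes 12 were higher over all cells (median 2.51) and 5 among non-cycling cells (median 1.08), namely Pcna (the replication clamp) at 4.07, Rrm1 (a ribonucleotide reductase subunit) at 2.40, Mcm7 and Mcm5 (replicative helicase subunits) at 2.43 and 2.18, and Rfc4 (a clamp loader subunit) at 2.28. Of 25 genes of G2 and mitosis 10 were higher over all cells (median 1.97) and 0 among non-cycling cells (median 0.38). Cdk4, the D-cyclin kinase of G1, differed by 4.04 among non-cycling cells, at a median of 1069 TPM (3.01 to 1717) against 4.425 TPM (0 to 4356). C123 takes part in the S phase values, which are not given without it. Over all measured genes, 243 higher genes remained without C123 and the 4 negative cells with an S phase mean of at least 3. Of the lower genes, 73.1% remained.

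Several regulators outside these groups were apart among non-cycling cells, where 4.62% of all measured genes were higher and 1.91% lower. A single member apart in a list is therefore no result about that list. Nfix (a nuclear factor I protein) differed by 4.04, at a median of 1035 TPM against 23.4 TPM, and was the only 1 of 5 measured NFI and FoxO genes apart. In the Wnt list, with a median of 0.03, Ctnnb1 (beta-catenin) differed by 3.20 and Tcf7l2 (its DNA-binding partner) by -3.03, the other 15 of 17 members not being apart. Among growth factor receptors 3 of 10 were lower, with Ntrk2 (the BDNF receptor) at -4.07, Fgfr1 at -2.84 and Fgfr3 at -2.33. The Hedgehog list had 0 of 8 members apart in either direction. Fos, an immediate early gene that cell dissociation is known to induce, differed by -3.36 at medians of 0.83 and 5.05 TPM, and 1 of 21 genes of its list was lower and 1 higher (Hsph1, a heat shock protein, 3.10).

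A comparison within the cycling cells, added after the other results had been seen, shares no cell with the non-cycling one. Between 9 Eomes-positive and 12 Eomes-negative cycling cells 314 genes were apart and higher (2.68%) and 411 lower (3.51%). Not all of the 12 were free of markers of other cell types, with oligodendrocyte precursor list means of up to 7.11. Without cells with a list mean of at least 4 for another type (8 against 10 cells), 363 genes were higher (3.1%) and 550 lower (4.7%). Of the 541 genes higher among non-cycling cells 66 were also higher among cycling cells, which is 12.2% of the 541 and 21.02% of the 314. Of the 224 lower genes 68 were also lower, 30.4% of the 224 and 16.5% of the 411. In sign alone, 57.7% of the 541 were higher among cycling cells, beside 45.2% of all measured genes, and 79.9% of the 224 were lower, beside 53.1%.

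The 66 genes apart and higher in both comparisons were 0.564% of the measured genes, and the 68 lower genes were 0.581%. Of the 66 genes 25 were in any of the 41 lists, and of the 68 lower genes likewise 25. Most of them were therefore in no list, but the lists name only 722 distinct genes, beside 11704 measured ones. Eomes set the sides in both comparisons, so its place among the 66 was fixed by the choice of cells. With Eomes counted, the higher genes held 4 of the 18 intermediate progenitor genes (Eomes, Mfap4, Igsf8 and Sox11) and 3 of the 16 neuroblast genes. The higher genes also held 6 of the 47 ribosomal genes, 3 of the 21 S phase genes and 0 of the 25 genes of G2 and mitosis. Elavl4 was among them at 6.30 and 3.70, and Igsf8 (an immunoglobulin superfamily membrane protein) at 3.31 and 3.24. The lower genes held 7 of the 24 adhesion genes, 5 of the 25 stem cell genes and 4 each of the astrocyte, uptake and lipid carrier genes. Scrg1 (a small secreted protein) differed by -4.78 and -5.06, Mt3 (metallothionein 3) by -4.56 and -3.88, Sparcl1 (a matrix protein) by -3.82 and -4.13, and Ntrk2 by -4.07 and -2.85.

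For Scrg1, 1 of 9 Eomes-positive cycling cells reached 10 TPM (16.6 TPM) against 7 of 12 Eomes-negative cycling cells (up to 3216 TPM). Mt3 had a median of 39.3 TPM (0 to 550) against 766 TPM (17.5 to 2557) in the cycling cells, and every one of the 9 lay below the negative median although the ranges overlapped. Qk (an RNA-binding protein of glia) was at 1.26 to 110 TPM in the 9 positive and 73.4 to 1524 TPM in the 12 negative cycling cells, with 9 of 9 below the negative median.

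Within the cycling cells the list of G2 and mitosis had a median difference of -0.47, with 1 of 25 members apart and higher (Bub1, a spindle checkpoint kinase, at 3.36) and 5 lower. The lower members were Plk1 (a mitotic kinase) at -3.07, Nusap1 (a spindle protein) at -2.87, Cdc20 (an activator of the anaphase-promoting complex) at -2.51, Bub1b (a checkpoint kinase) at -2.30 and Cenpe (a kinetochore motor) at -2.14, and 9 of the 25 had a difference above 0. Cdk1, which the score uses and which therefore helped to choose these cells, had medians of 1.80 and 377 TPM. The S phase list had a median of 1.28 with 7 of 21 higher and 0 lower. Among these, Rrm2 (a ribonucleotide reductase subunit) differed by 3.78 and Rpa2 (a subunit that binds single-stranded DNA) by 3.80. Phase genes therefore differed between the cycling cells of both sides, and their part in the other differences was not tested.

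**Figure D5:**
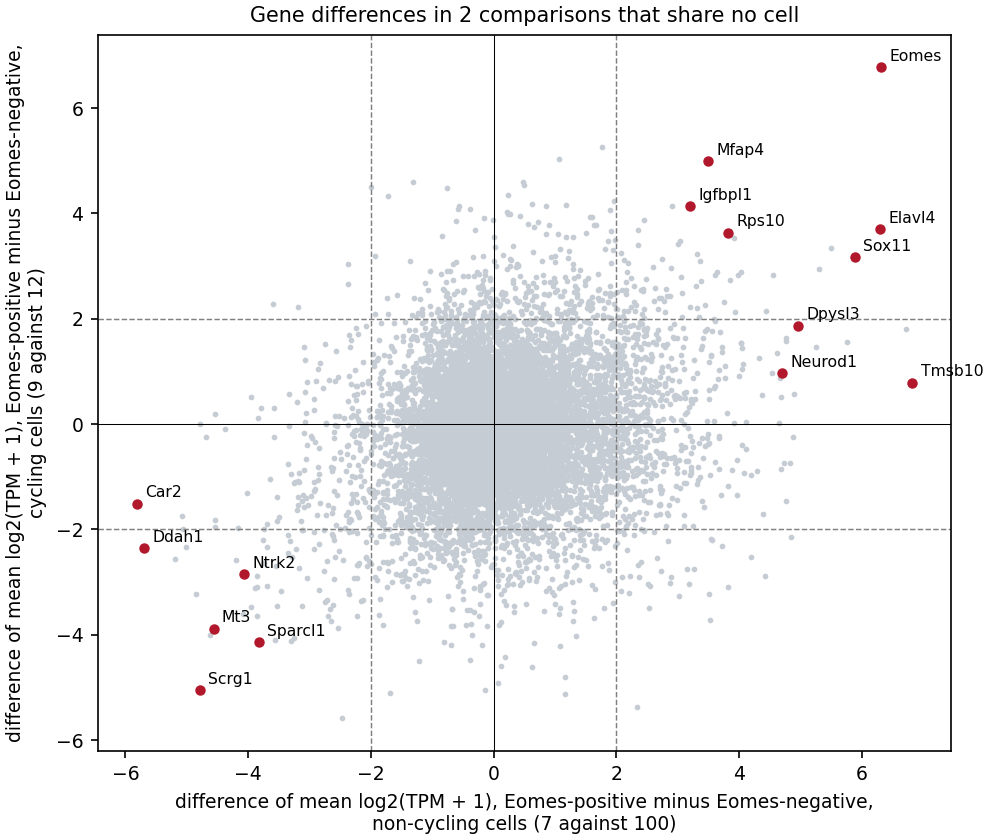
Each point is 1 of 11704 measured genes, placed by its difference in mean log2(TPM + 1), Eomes-positive minus Eomes-negative, among non-cycling cells (horizontal axis, 7 against 100) and among cycling cells (vertical axis, 9 against 12), which share no cell. Dashed lines mark differences of 2 in size. Elavl4, Sox11, Mfap4 and Igfbpl1 are in the upper right, Scrg1, Mt3, Sparcl1 and Ntrk2 in the lower left, and Tmsb10 and Car2 are far out on the horizontal axis only.

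The Eomes-positive cells did not all match the label of progenitor to the same degree. C19 and C20, which hold the lowest Eomes levels of the 16, had neural stem cell list means of 5.62 and 6.03, against 1.63 to 3.69 in the other 14, and intermediate progenitor list means of 0.39 and 1.32. C138, with the most Eomes, had no sign of cycling (a score of 0), 4916 TPM of Slc1a3, 1947 TPM of Neurod1 and Hopx and Gfap listed at 0. Without C19 and C20 the genes that remained apart numbered 351 higher and 191 lower in place of 261 and 154, and those higher among non-cycling cells 822 in place of 541.

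Among the lists of other cell types, those of mural and mature neuron genes had medians of 0.94 and 1.65 in Eomes-positive cells. In Eomes-negative cells these medians were 0.94 and 1.39. The remaining lists had medians of 0 to 0.27 in the 16 Eomes-positive cells. A list mean of at least 4 for oligodendrocyte, oligodendrocyte precursor, endothelial, mural, microglial, erythroid or mature or inhibitory neuron genes was seen in 1 of them, C140, for mature neuron genes (4.33). C140 also had the highest endothelial (3.44), mural (2.79) and erythroid (3.40) list means of the positive cells and the lowest eCFP level, and it was not removed. Without it the counts that remained were 257 and 157, and 8 of 15 Eomes-positive cells were cycling. Of the 12 microglial markers, C1qa, C1qb, Tmem119, Aif1, Tyrobp and Fcrls were listed at 0 in all 16 cells, as were 9 of 10 inhibitory neuron markers, Gad1 among them. In the Eomes-negative cells the same limit was reached for oligodendrocyte precursor genes in 5, mature neuron genes in 5, erythroid genes in 5, and endothelial, mural and microglial genes in 1 each. No caller of doublets was run, and the part of such cells in the differences was not tested beyond leaving them out.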

How the data were processed

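The authors deposited gene levels in TPM for 23307 genes in 172 single-cell libraries, and every column sums to 1e+06. RSEM and the genome build mm9 are named per the submitters' processing notes, and the NuGEN Ultralow V2 kit per the labels' protocols. The RSEM version, the aligner, the annotation and the choice of cells before deposit: not given in the sources used here. TPM keeps no depth, and RSEM divides reads shared by gene copies, so ribosomal, histone, tubulin and other multicopy genes are uncertain. Of the values in C libraries 78.0% were listed at 0, which can be a failed estimate: Gapdh was listed at 0 in 2 libraries. One column, C27, fits 2 sample titles and was kept as a C library.

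The members, the gene lists (41 lists, 12 for cell types and 29 for processes) and the comparisons were chosen with earlier results of these data known, and they support nothing by themselves. Differences of mean log2(TPM + 1) were computed in Python 3.11.15 with pandas 2.3.3 and numpy 2.4.6, intervals with scipy 1.17.1, and figures with matplotlib 3.10.9. The calculation was tested on simulated data with less spread between cells and fewer zeros than these libraries. That test checked the code and not how reliable the calls are here. Since the labels name no animal, cells are not replicates and no p-value was computed. Differences on this scale understate the change of low genes. Named genes are 44 fixed genes, the 10 highest and 10 lowest genes apart among non-cycling cells, the 5 largest lost in each direction, and the highest and lowest member of each list; other list members are named where a count of 5 or fewer needed them or, as with Sparcl1 and Rrm2, after their values were seen. Of the fixed genes, 1 is not reported here. Promoters were matched to RefSeq GRCm38.p6 by symbol or older symbol and carry no coordinates of the deposited data. Alternatives covered the pseudocount, gene filter, rescaling, mean, thresholds, cycling score and each positive cell left out.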

Additional observations from a re-analysis of the deposited data

Results flagged for a closer look

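By Dixon's rule for the gap to the nearest cell, single cells stood apart from their group in 12 of 38 sets of values tried. All of them were in Eomes-positive cells, and lists that share a cell are not independent. The rule's chance rate of about 1 in 20 groups assumes normally distributed values. Some of these list means rest on a single gene, so that rate need not hold here. The count of 12 therefore cannot show more flags than chance would give, and the cells below are a description. All values are on the log2(TPM + 1) scale.

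Among the 7 non-cycling Eomes-positive cells, C138 had an Eomes level of 11.42, with the next cell at 6.97, and an oligodendrocyte list mean of 1.10, next 0.44. C20 had an astrocyte list mean of 4.36, next 2.06, and an inhibitory neuron list mean of 0.37, next 0.11. C123 had an S phase list mean of 5.91, next 2.85, although its score of 4 cycling genes was 2.39.

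Among the 9 cycling Eomes-positive cells, C59 had an oligodendrocyte precursor list mean of 1.30, next 0.46. C140 stood apart in 6 lists of other cell types: endothelial genes (3.44, next 0.93), mural genes (2.79, next 1.06), microglial genes (1.62, next 0.49), erythroid genes (3.40, next 0.92), inhibitory neuron genes (0.38, next 0.16) and mature neuron genes (4.33, next 2.01). Its eCFP level of 710 TPM was the lowest of the 16. The inhibitory neuron means of C140 and C20 rest on Gad2 alone, at 13.16 and 11.82 TPM. The other 9 markers of that list were listed at 0 in all 16 cells.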

How the results depend on the processing

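All gene counts here are given as percent of the 11704 measured genes, higher before lower in Eomes-positive cells; the main values were 3.94 and 1.67 over all cells, 4.62 and 1.91 among non-cycling cells, and 2.68 and 3.51 among cycling cells. More genes were higher than lower over all cells, among non-cycling cells and among those that remained, except with the log2 of the mean TPM in each and with Eomes-positive cells from 1 TPM over all cells and among those that remained. The sizes moved as follows, and the cause was not tested where the setting does not itself fix it. With a pseudocount of 0.1, 6.16 were higher over all cells, 7.82 among non-cycling cells and 3.90 remained, 4.78 and 6.19 were apart among cycling cells, 1.18 and 0.923 in both comparisons that share no cell, and 14 positive and 27 negative cells were cycling. With a pseudocount of 10 the values were 1.12 and 0.752 over all cells, 1.39 and 0.76 non-cycling, 0.632 and 0.607 remaining, 0.718 and 0.914 cycling, and 0.094 and 0.231 in both, with 5 and 7 cells cycling. With a difference of at least 3 they were, in the same order, 0.965 and 0.709, 1.47 and 0.76, 0.521 and 0.487, 0.76 and 1.08, and 0.103 and 0.145. With the log2 of the mean TPM, which moves the median of all genes to -0.44 over all cells and -0.90 among non-cycling cells, 1.2 were higher over all cells, 1.65 higher and 2.97 lower among non-cycling cells, 0.513 remained higher and 0.128 were higher in both, and the proteasome list median among non-cycling cells turned to -0.0076. With Eomes-positive cells from 50 TPM (11 cells, 4 non-cycling) 9.14 and 2.97 were apart among non-cycling cells. From 1 TPM (26 cells, 17 non-cycling) the values were 0.743 and 0.837 over all cells, 0.607 and 0.513 non-cycling, 0.299 and 0.325 remaining, and 0.0769 and 0.137 in both. With Slc1a3 of at least 1000 TPM 6 negative cells were cycling, 6.86 of genes were lower among cycling cells and 0.991 lower in both; with negative cells kept to the positive range of genes per library these were 5.39 and 0.889. With a cycling score of 2 (4 non-cycling positive cells) 7.05 and 2.96 were apart among non-cycling cells and 2.26 lower among cycling cells.

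Leaving out each Eomes-positive cell in turn gave 3.47 to 4.37 higher and 1.61 to 1.83 lower over all cells, 4.62 to 7.22 and 1.85 to 2.34 among non-cycling cells, 1.93 to 2.79 and 1.2 to 1.5 remaining, 2.68 to 3.92 and 3.44 to 3.90 among cycling cells, and 0.513 to 0.786 and 0.504 to 0.658 in both. Without C19 and C20, chosen after seeing the data, 7.02 were higher among non-cycling cells. Of 738 list medians under other settings, 683 moved by less than 1 SD between cells, 54 by more and 1 reversed. Only medians of at least 1 in size at the main setting could count as reversed. Smaller medians also changed sign. On the log2 of the mean TPM, oxidative phosphorylation went from 0.93 to -0.13 among non-cycling cells, and the list of G1 cyclins, CDKs and inhibitors from 0.11 to -1.44. No paired analysis was possible because each library is 1 cell, the sides are chosen within the C libraries by their own transcripts, and the numbers in the titles name cells that no label ties together. Depth is unknown for TPM, so a transcript listed at 0 may be below detection, and 16 cells from an unnamed number of animals set the precision of every share.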
